A study of Mus musculus with 2 samples.

Results

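Head-to-head pairs of protein-coding genes, which start on opposite strands and are transcribed away from each other, were examined for open chromatin in mouse CD8+ T cells. A pair was kept where the start of the minus-strand gene lay 1 to 1000 bp before the start of the plus-strand gene on chromosomes 1 to 19 of GRCm38/mm10. This gave 734 pairs at 714 separate places, holding 1448 of the 20807 protein-coding genes, and 20 genes belonged to more than 1 pair. The starts lay between 1 and 987 bp apart, with a median of 128 bp and quartiles of 66.25 and 240 bp. The members are the ATAC-seq intervals that overlap the span between both starts widened by 500 bp on either side. These were 1014 of 127423 intervals (0.796%) in the vehicle library and 1044 of 179414 (0.582%) in the TAMo library. The promoters of the other 19359 genes, each taken as 500 bp on either side of the gene start, served for comparison.

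ATAC-seq, in which a transposase cuts and tags accessible DNA, was run on sorted CD8+ T cells of OT-I mice of wild-type genotype. OT-I cells carry a transgenic receptor for an ovalbumin peptide, and every culture received that peptide, OVA257-264, for 48 h. One group was cultured with vehicle, and the other with TAMos, which the labels define as CD11b+Ly6G-Ly6Chigh cells purified from the spleens of mice bearing LLC tumours. Each group was 1 library of about 50000 cells, so no difference between the groups has a replicate check and no test between them was possible. Intervals of ratios given below cover counting error of reads only. Intervals of shares reflect only the number of promoters counted.

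A bidirectional promoter is a stretch of DNA between closely spaced, oppositely oriented starts that serves both genes. In mammals such promoters are often CpG islands without a TATA box, and housekeeping genes, DNA repair genes and mitochondrial genes are common among them. Core histone genes are a special case, since many H2A and H2B genes lie head to head in clusters and are transcribed mainly during DNA replication.

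The spans between both starts of 10 pairs are shown as examples. They comprise 3 histone pairs, 1 pair each from the highest ratios, the lowest ratios and the strongest pairs, and 1 pair that was closed. The other 3 are shown for a CCAAT box or an NRF1 core. Each sequence runs 5′ to 3′ on the plus strand from the base after the minus-strand start to the base before the plus-strand start, in GRCm38/mm10, and was read from RefSeq promoters of GRCm38.p6. Capitals mark matches on either strand to the CCAAT box (CCAAT), the NRF1 core (GCATGCGC), the ETS motif (CCGGAAG), the YY1 motif (AAGATGGC), the TATA box (TATAAA), the octamer (ATTTGCAT), the E2F motif (TTTGGCGC), the CREB motif (TGACGTCA) and the ZNF143 motif (ACTACAATT), and matches may overlap. A match is a description of the letters and not evidence of a bound factor. The GC box is left out of the marking.
Hist1h2bf/Hist1h2ad (chr13:23574197-23574380, plus strand): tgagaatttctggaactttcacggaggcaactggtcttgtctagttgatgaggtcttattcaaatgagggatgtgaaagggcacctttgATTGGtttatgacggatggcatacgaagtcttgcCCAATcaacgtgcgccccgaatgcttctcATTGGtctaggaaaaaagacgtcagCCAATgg
Hist1h2ae/Hist1h2bg (chr13:23571221-23571395, plus strand): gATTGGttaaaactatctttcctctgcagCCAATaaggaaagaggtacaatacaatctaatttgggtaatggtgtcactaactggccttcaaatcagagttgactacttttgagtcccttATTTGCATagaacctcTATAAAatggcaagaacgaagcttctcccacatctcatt
Hist1h2ac/Hist1h2bc (chr13:23683949-23684198, plus strand): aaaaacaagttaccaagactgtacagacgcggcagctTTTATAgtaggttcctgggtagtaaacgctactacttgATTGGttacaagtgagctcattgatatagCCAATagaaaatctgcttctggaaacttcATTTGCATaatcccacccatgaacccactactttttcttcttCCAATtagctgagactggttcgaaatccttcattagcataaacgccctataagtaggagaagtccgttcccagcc
6030458C11Rik/Drosha (chr15:12824650-12824814, plus strand): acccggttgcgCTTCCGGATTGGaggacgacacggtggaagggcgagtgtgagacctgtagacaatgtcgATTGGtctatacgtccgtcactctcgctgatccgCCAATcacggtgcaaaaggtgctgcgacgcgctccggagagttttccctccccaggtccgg
Lsm7/Sppl2b (chr10:80855210-80855274, plus strand): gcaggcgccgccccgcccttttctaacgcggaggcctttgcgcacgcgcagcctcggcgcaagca
Nop14/Grk4 (chr5:34660149-34660378, plus strand): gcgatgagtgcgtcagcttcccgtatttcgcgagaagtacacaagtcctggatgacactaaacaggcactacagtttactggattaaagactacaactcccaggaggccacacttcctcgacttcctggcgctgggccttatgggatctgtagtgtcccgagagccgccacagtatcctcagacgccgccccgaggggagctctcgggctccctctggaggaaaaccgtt
Mrps12/Sars2 (chr7:28741821-28741991, plus strand): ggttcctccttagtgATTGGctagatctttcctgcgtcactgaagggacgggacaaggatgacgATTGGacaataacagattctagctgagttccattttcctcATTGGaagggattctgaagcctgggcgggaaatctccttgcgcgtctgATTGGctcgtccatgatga
Brca1/Nbr1 (chr11:101551956-101552148, plus strand): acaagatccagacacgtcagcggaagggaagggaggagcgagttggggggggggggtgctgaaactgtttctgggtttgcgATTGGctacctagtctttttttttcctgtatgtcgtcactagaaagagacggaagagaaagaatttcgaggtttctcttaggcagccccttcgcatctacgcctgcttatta
Wdhd1/Socs4 (chr14:47276858-47276930, plus strand): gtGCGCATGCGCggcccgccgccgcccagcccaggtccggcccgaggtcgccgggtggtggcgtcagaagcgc
Col4a4/Col4a3 (chr1:82586850-82586920, plus strand): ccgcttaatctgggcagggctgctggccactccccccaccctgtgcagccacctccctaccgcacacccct

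The spans differ in layout. Between Hist1h2bf and Hist1h2ad there were 4 CCAAT boxes in 184 bases, and between Hist1h2ac and Hist1h2bc there were 3 CCAAT boxes, 1 octamer and 1 TATA box in 250 bases. The Mrps12/Sars2 span, between a mitochondrial ribosomal protein gene and the mitochondrial seryl-tRNA synthetase gene, held 4 CCAAT boxes in 171 bases. In the span before Drosha, the nuclear enzyme that begins microRNA processing, 3 CCAAT boxes and 1 ETS match lay in 165 bases. The Wdhd1/Socs4 span of 73 bases held an NRF1 core read in both directions, counted as 2 overlapping matches. None of these motifs occurred in the spans of Lsm7/Sppl2b, Nop14/Grk4 or Col4a4/Col4a3.

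The deposited peak lists gave summits from which the number of reads covering each summit was recovered, and this number is called coverage below. Scaled coverage is coverage divided by the most frequent background of that library, 4.71 reads in vehicle and 5.80 in TAMo, a depth ratio of 1.23. Markers of the sorted cells were open: 9 of 10 CD8 T cell marker promoters held an interval in both libraries, the exception being Cd28. Of 12 myeloid marker promoters, 3 held an interval in vehicle and 6 in TAMo, with summed scaled coverage of 210 and 235. Those of Lyz2, Spi1, S100a8, S100a9, Mpo and Ly6c2 held none in either library, and the intervals of Itgam (118 reads), Adgre1 (31 reads) and Csf1r (24 reads) occurred in the TAMo list alone. Those open in both differed in direction: Fcgr3 had 339 reads in vehicle and 119 in TAMo (log2 ratio -1.81), Cd14 141 and 411 (1.24) and Cd68 510 and 661 (0.07). The part of other cells in the results below was not tested.

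Nearly all pairs were open. An interval was present at 705 of 734 pairs (96.0%, 95% Wilson interval 94.4 to 97.2) in vehicle and at 706 (96.2%, 94.5 to 97.3) in TAMo. Over all protein-coding promoters the shares were 60.7% and 62.7%, and over genes in no pair they were 58.1% (57.5 to 58.8) and 60.2% (59.5 to 60.9). Wilson intervals treat each promoter as a separate draw, though some pairs share a place and each share comes from 1 library. They are no test between pairs and other promoters. Both libraries were open at 703 pairs, and only 2 pairs were open in vehicle alone and 3 in TAMo alone. Over all promoters 0.851% were open in vehicle alone and 2.8% in TAMo alone.

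The 5 pairs open in a single library were weak or lay at the edge of the window. Slc27a5/Trim28 had a vehicle summit of 26 reads, and Kirrel2/Nphs1, which encodes 2 slit diaphragm proteins of the kidney, a TAMo summit of 59 reads. For Tssk3/Fam229a in vehicle, and for Pinlyp/Xrcc1 and Sncg/Mmrn2 in TAMo, the interval touched the widened span with no summit inside it. These calls concern the annotated starts of the pairs. Within 500 bp of their RefSeq starts, Xrcc1 (410 bp away) and Trim28 (25038 bp away) held an interval in both libraries. Fam229a held one in vehicle alone, and the other matched genes of these pairs held none. With the span widened by 250 bp in place of 500 bp, 1 pair was open in vehicle alone and 1 in TAMo alone. With both lists cut to the 127423 strongest intervals, 5 were open in vehicle alone and 3 in TAMo alone.

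The 26 pairs without an interval in either library included several with tissue-restricted genes. Col4a4/Col4a3 encodes basement membrane collagen chains, Il11/Tmem190 a cytokine and a sperm-linked membrane protein, Smc1b/Ribc2 a meiotic cohesin subunit and a cilium-linked protein, and Bhmt2/Dmgdh enzymes of methyl group metabolism. Hist1h2ba/Hist1h2aa, the testis histone pair, was closed too. Other closed pairs held a widely expressed gene whose annotated outermost start differs from its RefSeq start. RefSeq promoters were matched for 33 of the 51 genes in closed pairs, and 8 of these 33 held an interval within 500 bp of the RefSeq start. Among them were Rps2, a ribosomal protein gene with its RefSeq start 1947 bp away, Ccnt1, the cyclin of the elongation factor P-TEFb, 3187 bp away, and Dgcr2, 6834 bp away. For these genes the annotated start of the pair and the RefSeq start are different places.

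Open chromatin followed the spacing of the starts. One interval covered both starts at 293 of 296 open pairs with starts up to 100 bp apart in vehicle and at 94.2% of those with starts 100 to 200 bp apart. The share was 84.9% at 200 to 300 bp, 77.4% at 300 to 500 bp and 31.3% (21.2 to 43.4) at 500 to 1000 bp. TAMo gave 293 of 296 pairs, then 95.3%, 81.7%, 72.6% and 32.3% (22.2 to 44.4) in the same order. The strongest summit lay a median of 32.5 bp from the midpoint of the closest pairs and 360.75 bp from the midpoint of the widest pairs in vehicle. In the widest class it lay a median of 97.5 bp from the nearer start.

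**Figure D1:**
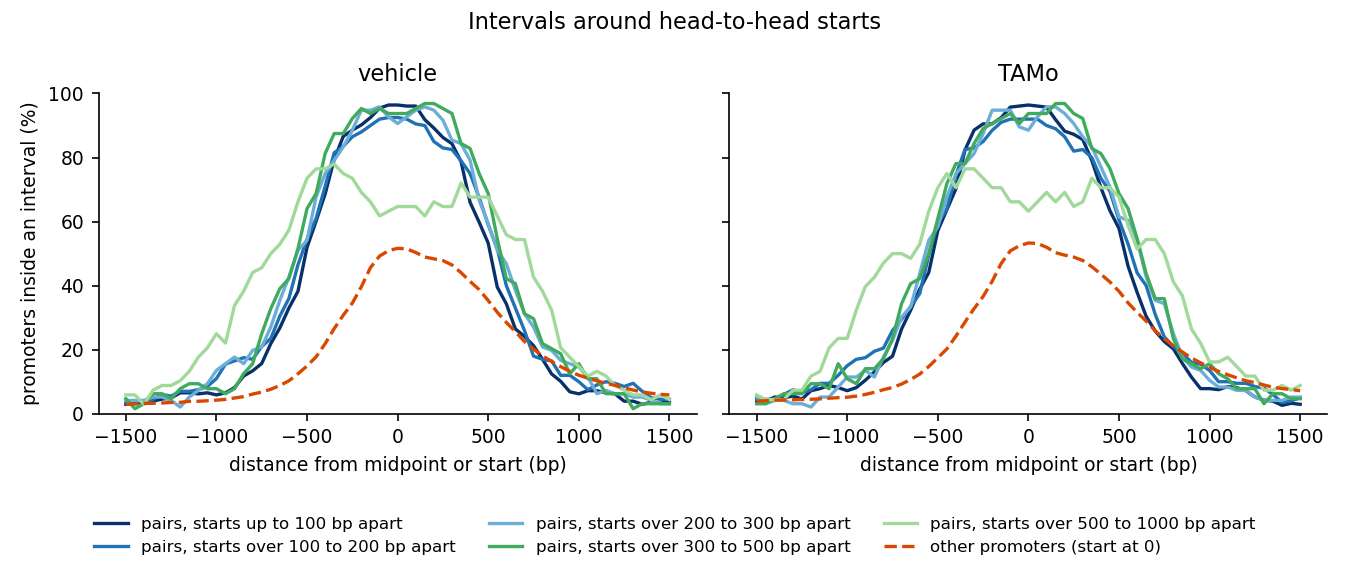
Share of promoters whose position at a given distance (x axis, bp) from the midpoint of the pair, or from the start of an unpaired gene in its reading direction, lies inside an interval (y axis, %), for vehicle (left) and TAMo (right). Solid lines are pairs by spacing and the dashed line is the 19359 other promoters. In vehicle, pairs with starts up to 100 bp apart are at 96.4% at the midpoint, those 200 to 300 bp apart at 90.6% there and at 95.8% 100 bp to its left, and those over 500 bp apart between 61.8% and 66.2% within 150 bp of it.

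Openness reached to both sides of a pair. With starts up to 100 bp apart, 52.0% of pairs were inside an interval 500 bp to the left of the midpoint and 53.3% were 500 bp to the right in vehicle. At other promoters, 14.9% were inside an interval 500 bp upstream of the start and 35.4% were 500 bp downstream. In TAMo the values were 57.2% and 57.8% at these pairs and 17.5% and 38.2% at other promoters. These shares count closed promoters too. At the centre, 96.4% of these pairs and 51.7% of other promoters were inside an interval in vehicle. The levels at 500 bp therefore do not compare the reach of open pairs with that of open single starts. Within each set, single starts were open mainly on the transcribed side, and pairs to a like degree on both sides. Both sides of a pair are transcribed, and whether pairs differ from single starts beyond this layout was not tested.

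Pairs also had higher and wider intervals. The median summit held 623.5 reads in vehicle and 742 in TAMo at pairs, against 384 and 456 at other open promoters. Scaled, these were 132 and 128 at pairs and 81.6 and 78.6 elsewhere. The strongest interval was a median of 934 bp wide in vehicle and 959 bp in TAMo at pairs, and 809 and 825 bp at other promoters. The widths lay closer among promoters with at least 447.25 reads in vehicle and 517 in TAMo. There they were 958.5 and 975 bp at pairs and 928 and 946 bp at others. The strongest summit of a pair was also picked from a wider window than that of a single start. A pair window held 2.89 summits on average in vehicle and 3.05 in TAMo, though it is wider than the window of a single start, which held 2.22 and 2.29. Scaled coverage in vehicle was lowest in the closest class, 110, and highest at 300 to 500 bp, 164, with 140 in the widest class.

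The 4 strongest pairs by mean scaled coverage were open to a like degree in both libraries. Nop14/Grk4, a ribosome biogenesis gene and a receptor kinase gene, had 1407 reads in vehicle and 1756 in TAMo, a log2 ratio of 0.02 (95% interval -0.08 to 0.12). Srgap2/Fam72a had 1265 and 1712 reads (0.13, 0.03 to 0.24). Usp5/Cdca3, a deubiquitinase gene beside a gene of mitotic entry, had 1236 and 1691 reads (0.15, 0.04 to 0.26). For Mob3a/Izumo4 the counts were 1254 and 1617 reads (0.06, -0.04 to 0.17), from summits 399 bp apart in overlapping intervals.

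Coverage at pairs was close to equal in both cultures. A log2 ratio of scaled TAMo over vehicle coverage could be formed at 692 pairs, of which 18 repeat the summits of a neighbouring pair. The other 42 comprise 26 without an interval, 5 open in 1 library, 7 whose strongest intervals did not overlap, 1 with no summit inside the window and 3 whose reads were not recovered. The median ratio was -0.03, with quartiles of -0.14 and 0.10. At 10654 other promoters it was 0.03, with quartiles of -0.14 and 0.22. These medians carry no interval, because promoters read from 1 library per group are not replicates, and the shift between them was not tested. Centred on the median of other promoters, the median at pairs was -0.05.

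Few pairs differed by 1.5-fold or more. One pair (0.145%, 0.0255 to 0.814) was at least 1.5-fold higher in TAMo and 16 (2.31%, 1.43 to 3.72) were at least 1.5-fold lower. Over all promoters with a ratio, 7.66% were higher and 3.75% lower by that rule, and over other promoters 8.60% (8.08 to 9.15) and 3.91% (3.56 to 4.30). At 2-fold, no pair was higher and 2 were lower, against 2.88% and 0.891% over all promoters. The counting interval lay above 0 at 108 pairs (15.6%) and below 0 at 143 (20.7%), against 24.3% and 18.5% over all promoters. The spread of ratios was smaller where coverage was high. The interquartile range was 0.24 at all pairs with a ratio and 0.37 at other promoters. Among promoters with at least 447.25 reads in vehicle and 517 in TAMo, the lower quartiles of pairs, the interquartile range was 0.20 at 504 pairs and 0.23 at 4423 others. In that range, chosen after the values were seen, 0.249% of other promoters were higher and 0.384% lower by 1.5-fold, and 0.198% and 0.992% of pairs.

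**Figure D2:**
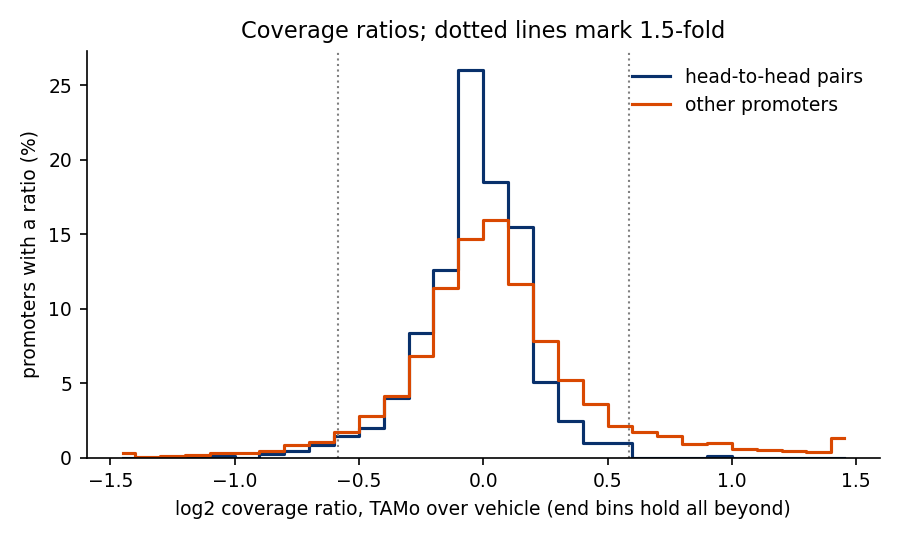
Log2 ratio of scaled TAMo over vehicle coverage (x axis, bins of 0.1 with all values beyond the axis in the end bins) against the share of promoters with a ratio (y axis, %), for 692 pairs and 10654 other promoters. The pairs rise to a narrower peak near 0, and the right shoulder of other promoters beyond the dotted line at 1.5-fold is nearly empty for pairs.

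Hist1h2bf/Hist1h2ad and Klc3/Ckm had the lowest ratios in TAMo. Hist1h2bf/Hist1h2ad, whose span is shown above (chr13:23574197-23574380), had 979 reads in vehicle and 553 in TAMo, a log2 ratio of -1.13 (-1.28 to -0.97). Klc3/Ckm (chr7:19404104-19404776), a kinesin light chain gene and the muscle creatine kinase gene, had 423 and 252 reads, -1.05 (-1.28 to -0.82). Its summit lay 54 bp from the Klc3 start in vehicle and 43 bp in TAMo. Lsm7/Sppl2b, a splicing factor gene and a membrane protease gene, had 277 and 189 reads, -0.85 (-1.13 to -0.58). Peg3/Usp29, a pair of imprinted genes, was among the weakest with 45 and 31 reads, -0.84 (-1.55 to -0.15).

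The remaining low pairs lay closer to the 1.5-fold bound. Plcd3/Acbd4, a phospholipase gene and an acyl-CoA binding protein gene, had 224 reads in vehicle and 160 in TAMo, -0.79 (-1.09 to -0.49). Kctd19/Lrrc36 had 168 and 131 reads, -0.66, with a counting interval that ended at -0.32. Hist1h2ah/Hist1h2bk and Hist1h2ag/Hist1h2bj complete the 8 lowest and are described with the histones. The vehicle value was the higher scaled level in each of these 8 pairs, and each counting interval lay below 0. Duox2/Duoxa2, at -0.59, was the pair nearest to the 1.5-fold bound on the inside, and Dzip3/Cip2a, at -0.57 among the cell cycle pairs, lay outside it.

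The pairs highest in TAMo reached smaller values. 6030458C11Rik/Drosha (chr15:12824649-12824815) had 473 reads in vehicle and 1093 in TAMo, 0.91 (0.75 to 1.06). The values came from summits 123 bp apart, at -18 bp from the midpoint in TAMo and at 105 bp in vehicle, where the vehicle list split the region into 2 intervals and named no summit at the TAMo position. Where the strongest summits had to lie within 50 bp of each other, as at 638 pairs, no pair was 1.5-fold higher and 15 were lower. P3h4/Fkbp10, which encodes 2 endoplasmic reticulum proteins of collagen modification, had 199 and 366 reads, 0.58 (0.32 to 0.83), just outside the bound. 1810024B03Rik/Snrnp200, the latter a helicase gene of the U5 small nuclear ribonucleoprotein, had 480 and 862 reads, 0.54 (0.38 to 0.71). Acvr1/Upp2, a receptor gene of bone morphogenetic protein signalling beside a uridine phosphorylase gene, had 224 and 399 reads, 0.53 (0.29 to 0.77).

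Of the other 4 high pairs, 2 were weak. Gm9922/Lmo7 had 70 reads in vehicle and 126 in TAMo, 0.55 (0.11 to 0.99), and Sobp/9030612E09Rik had 64 and 113, 0.52 (0.06 to 0.98). Pex11a/Wdr93, with a peroxisome division gene, had 194 and 340 reads, 0.51 (0.25 to 0.77). Tmtc3/Cep290, with a gene of the ciliary transition zone, had 369 and 646 reads, 0.51 (0.32 to 0.69).

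Of 16 pairs chosen by name, 6 were found by the rule, and 5 of them were open. Mcm4/Prkdc, a subunit of the replicative helicase and the catalytic subunit of DNA-dependent protein kinase, had 773 reads in vehicle and 755 in TAMo, -0.34 (-0.48 to -0.19), from summits 454 bp apart. Mrps12/Sars2 had 811 and 902 reads, -0.15 (-0.29 to -0.01). Atm/Npat, a DNA damage kinase and a coactivator of histone genes, had 948 and 1106 reads, -0.08 (-0.21 to 0.05). Brca1/Nbr1, a homologous recombination gene and an autophagy receptor gene, had 440 and 545 reads, 0.01 (-0.18 to 0.19). Gart/Son, a purine synthesis gene and a splicing gene, had 841 and 1121 reads, 0.11 (-0.02 to 0.24). Only Mcm4/Prkdc and Mrps12/Sars2 had counting intervals off 0, and Col4a4/Col4a3 was closed.

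Histone pairs stood lower in TAMo as a group. There were 13 pairs of 2 core histone genes, 12 on chromosome 13 and Hist2h2ac/Hist2h2be on chromosome 3. Of these, 10 were open in both libraries. All 10 had a log2 ratio below 0, 9 with the counting interval below 0, and the median was -0.44, against -0.03 over all pairs. At least 1.5-fold lower were 4 of 10, where the share over all promoters was 3.75%. Their median coverage was 909.5 reads in vehicle and 834 in TAMo, so they were among the strongest pairs in vehicle.

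The histone pairs ranged from near 0 to past 2-fold lower. Below Hist1h2bf/Hist1h2ad came Hist1h2ah/Hist1h2bk with 959 reads in vehicle and 708 in TAMo, -0.74 (-0.88 to -0.60). Hist1h2ag/Hist1h2bj had 806 and 611 reads, -0.70 (-0.86 to -0.55), from summits 154 bp apart, and Hist1h2ak/Hist1h2bn had 924 and 726, -0.65 (-0.79 to -0.51). These 4 pairs, all H2A genes facing H2B genes, passed 1.5-fold. Hist1h2ae/Hist1h2bg had 900 and 813 reads, -0.45 (-0.59 to -0.31), and Hist2h2ac/Hist2h2be had 1034 and 940, -0.44 (-0.57 to -0.31). Hist1h2an/Hist1h2bp (-0.23), Hist1h2bh/Hist1h3f (-0.21) and Hist1h2ac/Hist1h2bc (-0.17) were lower by less, and for Hist1h2bl/Hist1h2ai the counts were 745 and 855, -0.10 (-0.25 to 0.04). The nearby pair Bola1/Hist2h2ab, with a single histone gene, was at -0.10 (-0.25 to 0.05).

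The chromatin around the histone pairs differed more than their summits. The local background, which the peak caller estimates from reads around a summit, was a median of 132 reads in vehicle and 71.7 in TAMo at the 10 histone pairs. Scaled by depth this is a median log2 ratio of -1.21, and it was below 0 at all 10 pairs. Over all 692 pairs the median was -0.08, with 469 (67.8%) below 0. At Hist1h2ah/Hist1h2bk the local background was 134.55 reads in vehicle and 40.86 in TAMo, a log2 ratio of -2.02, and at Hist2h2ac/Hist2h2be it was 121.065 and 101.985 reads, -0.55. The surroundings of the summits also held fewer reads in TAMo, and the window of that estimate is not given in the sources used here.

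Histone genes outside head-to-head pairs showed values of the same size. Of the 40 such genes, 33 had a ratio, with a median of -0.44, 30 below 0 and 12 at least 1.5-fold lower. Their local background had a median log2 ratio of -1.06. Without the 13 histone pairs, the median over pairs was -0.02 and 12 of 682 pairs were 1.5-fold lower. Histone genes are near-identical copies, and how reads matching several copies were placed is not given here, so single values are uncertain. Hist1h2bq/Hist1h2ao and Hist1h2ap/Hist1h2br held no interval in either library.

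**Figure D3:**
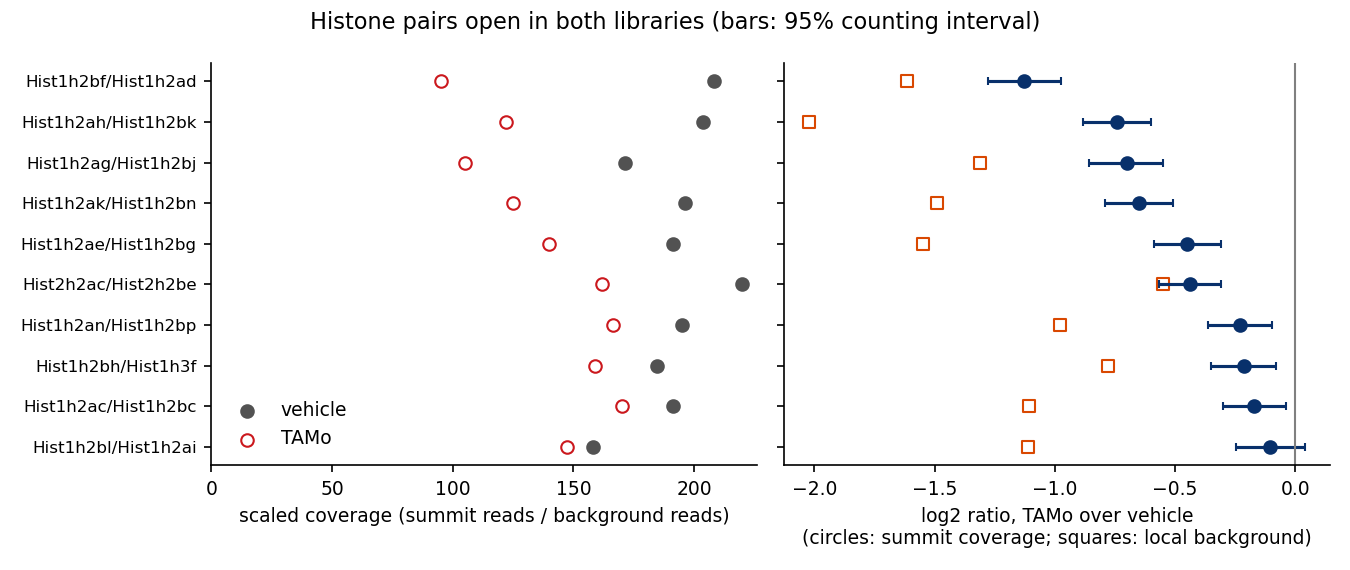
Scaled summit coverage (left, reads over background reads) in vehicle (filled) and TAMo (open), and log2 ratios of TAMo over vehicle (right), for the 10 histone pairs open in both libraries, with circles for summit coverage with its 95% counting interval and squares for local background. The open circles lie to the left of the filled ones in every row, and every square lies to the left of its circle.

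Among 82 pairs with a DNA replication or repair gene, 81 had a ratio, with a median of -0.04, 50 (61.7%) below 0, where 56.4% of all pairs were, and none 1.5-fold higher. The 3 that were 1.5-fold lower are 3.70% of the list, near the 3.75% over all promoters. These 3 were Rad54l/Pomgnt1, with a recombination motor gene (544 and 429 reads, -0.65), Larp7/Zgrf1, with a gene of the 7SK RNA complex (798 and 641, -0.62), and Recql4/Lrrc14, with a helicase gene (583 and 475, -0.60). At the other end Poll/Gm17018, with DNA polymerase lambda, had 286 and 487 reads, 0.47 (0.25 to 0.68). Among 44 pairs with a mitosis or cell cycle gene the median was -0.06, and none passed 1.5-fold in either direction. Hjurp/Trpm8, with the chaperone of the centromeric histone, had 1477 reads in vehicle and 1306 in TAMo, -0.48 (-0.59 to -0.37), and Rhno1/Foxm1, with a transcription factor of mitotic genes, had 305 and 269, -0.48 (-0.73 to -0.24).

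Genes of protein synthesis and energy supply differed little. The median was -0.07 over 18 pairs with a mitochondrial ribosome gene, -0.05 over 36 with a respiratory chain or import gene, and -0.05 over 52 with a cytosolic ribosome or ribosome biogenesis gene. Of these, Polr3a/Rps24 alone passed 1.5-fold, with 206 and 168 reads, -0.60 (-0.90 to -0.30). Over 8 pairs with a tRNA synthetase or amidotransferase gene the median was 0.04, and the lowest, S100pbp/Yars, had 821 reads in vehicle and 690 in TAMo, -0.55 (-0.70 to -0.41). Over 49 pairs with a splicing or RNA processing gene it was -0.05, from -0.85 at Lsm7/Sppl2b to 0.91 at 6030458C11Rik/Drosha.

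Protein turnover groups had medians just above 0, though not above the 0.03 of other promoters. The median was 0.01 over 26 pairs with a proteasome or chaperone gene and 0.02 over 40 with a ubiquitin or autophagy gene. Among the latter, Peg3/Usp29 alone was 1.5-fold lower. Lrrc42/Hspb11, with a gene of ciliary transport, had 608 and 1028 reads, 0.46 (0.31 to 0.60). Zinc finger genes had a median of -0.08 over 21 pairs. Of 11 pairs with an extracellular matrix or junction gene, 7 were open in vehicle and 9 in TAMo. The shares open were 96.0% and 96.2% over all pairs, and 60.7% and 62.7% over all promoters. Those open in TAMo alone were Kirrel2/Nphs1, with a weak summit, and Sncg/Mmrn2, with no summit inside the widened span. These calls are too weak to show a gain in this group. The 7 pairs open in both had a median of 0.01.

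**Figure D4:**
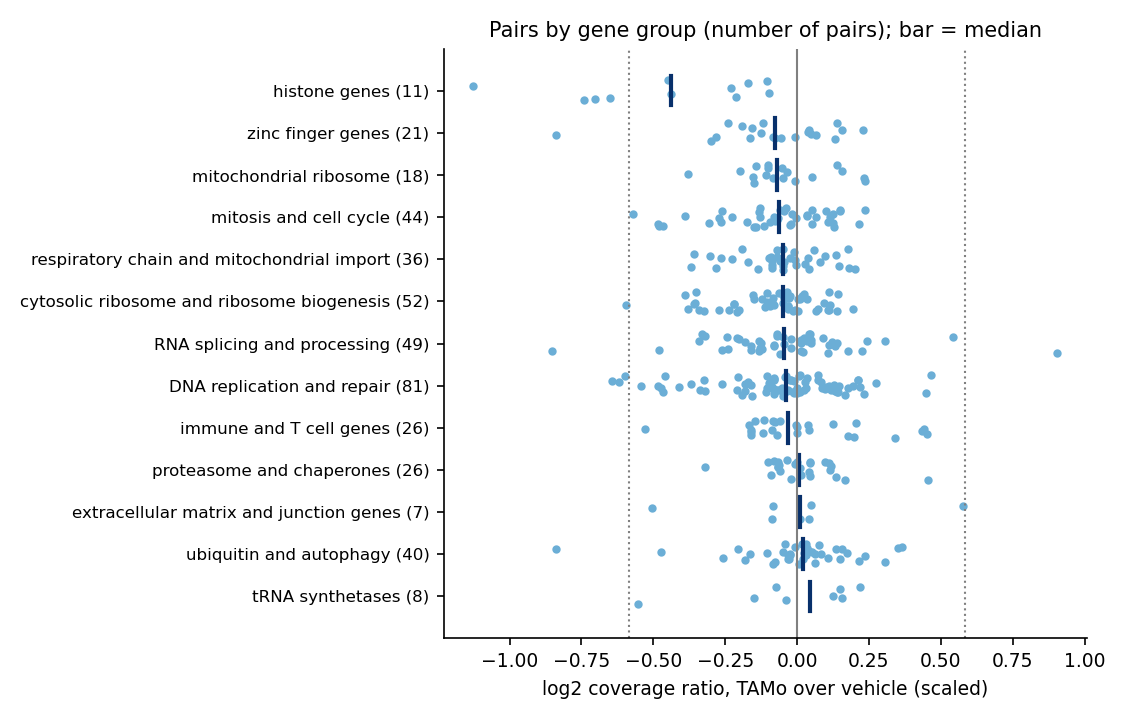
Log2 ratio of scaled TAMo over vehicle coverage (x axis) of each pair with a gene of the named group (rows, number of pairs with a ratio in brackets), with the median as a bar and 1.5-fold as dotted lines. The histone row, which includes Bola1/Hist2h2ab, lies wholly to the left of 0, and the medians of the other 12 groups lie between -0.08 and 0.04.

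Pairs with a gene of immune cells showed values on both sides of 0. Of 27 such pairs, 26 had a ratio with a median of -0.03, with none past 1.5-fold. Counting intervals lay above 0 at 6 (23.1%) and below it at 6, near the 24.3% and 18.5% over all promoters. Smyd1/Cd8b1, with the CD8 beta chain gene, had 745 reads in vehicle and 1256 in TAMo, 0.45 (0.32 to 0.58). Ifit1bl2/Ifit1, with interferon-induced genes, had 478 and 797 reads, 0.44 (0.27 to 0.60), and Il17rb/Chdh, with a receptor gene for interleukin-25, had 182 and 305, 0.44 (0.17 to 0.72). On the lower side C2/Ehmt2, a complement gene and a histone H3 lysine 9 methyltransferase gene, had 219 and 187 reads, -0.53 (-0.82 to -0.24). Scaled coverage in TAMo was above vehicle at the first 3 and below it at C2/Ehmt2.

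Within the same immune list, 4 more pairs are given that were chosen after their values were seen and lay near 0. Park7/Tnfrsf9, with the costimulatory receptor 4-1BB, had 754 reads in vehicle and 881 in TAMo, -0.08 (-0.22 to 0.06). Plgrkt/Cd274, with the gene of PD-L1, had 672 and 796 reads, -0.06 (-0.21 to 0.09). For Tctn3/Entpd1, with the ectonucleotidase CD39, the counts were 849 and 1047, 0.00 (-0.13 to 0.13). Eif3k/Map4k1, with a kinase gene that restrains receptor signalling, had 774 and 863 reads, -0.15 (-0.29 to -0.00). In 3 of these 4 pairs the counting interval included 0.

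The 2 sides of a pair could differ where the starts lay far enough apart. For 228 pairs with starts over 200 bp apart, the strongest summit on each side of the midpoint was taken within the widened span. At 47 of them the summits of both sides lay in separate intervals in both libraries. On each side the intervals of the libraries overlapped, and an interval did not have to cover a start. The median absolute difference between the log2 ratios of both sides was 0.23, the counting intervals of both sides were apart at 12 pairs and lay on opposite sides of 0 at 4. The sign was the same at 30 of 47 pairs, and Pearson's r across these 47 pairs, which share the 2 libraries and differ in coverage, was 0.10. These counts describe single libraries and say nothing about pairs joined in 1 interval.

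The pairs whose sides differed most included one of immune cell genes. Pecam1/Milr1 encodes an adhesion molecule of endothelial and blood cells and a mast cell receptor. Its Pecam1 side had 176 reads in vehicle and 136 in TAMo, -0.67 (-1.01 to -0.34), and its Milr1 side had 387 and 604, 0.34 (0.15 to 0.53). Rnf121/Xntrpc had 715 and 901 reads on the Rnf121 side, 0.03 (-0.11 to 0.17), and 277 and 222 on the other, -0.62 (-0.88 to -0.36). Cep170/Sdccag8, both genes of centrosome proteins, had 709 and 642 reads on the Cep170 side, -0.45 (-0.60 to -0.29), and 1064 and 1434 on the Sdccag8 side, 0.13 (0.01 to 0.24). Gm43951/Txndc17 was at 0.27 (-0.00 to 0.54) on the Gm43951 side and at -0.26 (-0.43 to -0.08) on the Txndc17 side.

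The sequence of the pairs was CpG-rich. RefSeq promoters, 250 bases before to 50 after a start, were matched for 642 of 734 pairs (87.5%), giving 632 distinct sequences. Their median GC content was 62.7% and their median observed over expected CpG 0.867, against 56.0% and 0.556 over 15346 other RefSeq promoters. A promoter was called CpG-rich at a GC content of at least 50% and a CpG ratio of at least 0.6, which held for 84.3% of pairs and 44.6% of others.

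The contrast in openness was also seen within each class of base composition. Among CpG-rich promoters, 98.7% (97.4 to 99.4) of pairs and 92.8% (92.2 to 93.4) of others were open in vehicle, and median scaled coverage was 134 and 99.7. Among CpG-poor promoters, 81.8% (73.1 to 88.2) of 99 pairs and 32.8% (31.8 to 33.8) of 8502 others were open. The TAMo library gave 98.7%, 93.4%, 83.8% and 35.9% in the same order. The CpG-poor classes were not alike in composition. Median observed over expected CpG was 0.541 at CpG-poor pairs and 0.240 at CpG-poor others, and median GC content 52.0% and 49.0%. At CpG-rich promoters, 0.189% of pairs and 4.35% of others were at least 1.5-fold higher in TAMo, and 1.32% and 3.13% lower.

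Short motifs divided the pairs from other promoters in both directions. The ETS motif (CCGGAAG), bound by a family of factors common in lymphocytes, occurred in 29.0% (25.6 to 32.6) of pair promoters, 11.1% of all others and 18.9% of CpG-rich others. The CCAAT box, bound by NF-Y, occurred in 45.6% of pairs, 38.7% of others and 36.5% of CpG-rich others. The YY1 motif (AAGATGGC) occurred in 7.91%, 2.87% and 4.51%, and the CREB motif (TGACGTCA) in 5.38%, 2.21% and 3.70%. For the CREB motif the Wilson intervals of pairs (3.88 to 7.42) and CpG-rich others (3.28 to 4.17) overlapped. For the NRF1 core (GCATGCGC) the shares were 6.49%, 3.42% and 6.41%, so pairs and CpG-rich others differed by less than the Wilson interval. The GC box (GGGCGGG) was found in 50.8% of pairs, 33.7% of others and 58.5% of CpG-rich others.

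The TATA box and the AP-1 motif were less frequent at pairs than over all other promoters. The TATA box (TATAAA) was found in 3.96% (2.69 to 5.77) of pairs, 14.2% (13.6 to 14.7) of others and 5.14% (4.64 to 5.69) of CpG-rich others. The AP-1 motif (TGANTCA), a site of factors induced by T cell receptor signals, was found in 3.16%, 7.39% and 3.23%. The E2F motif (TTTGGCGC) was rare everywhere, at 1.27%, 0.626% and 0.994%, as was the ZNF143 motif (ACTACAATT), at 0.791%, 0.554% and 0.628%. All motifs were searched on both strands and a promoter was counted once per motif.

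**Figure D5:**
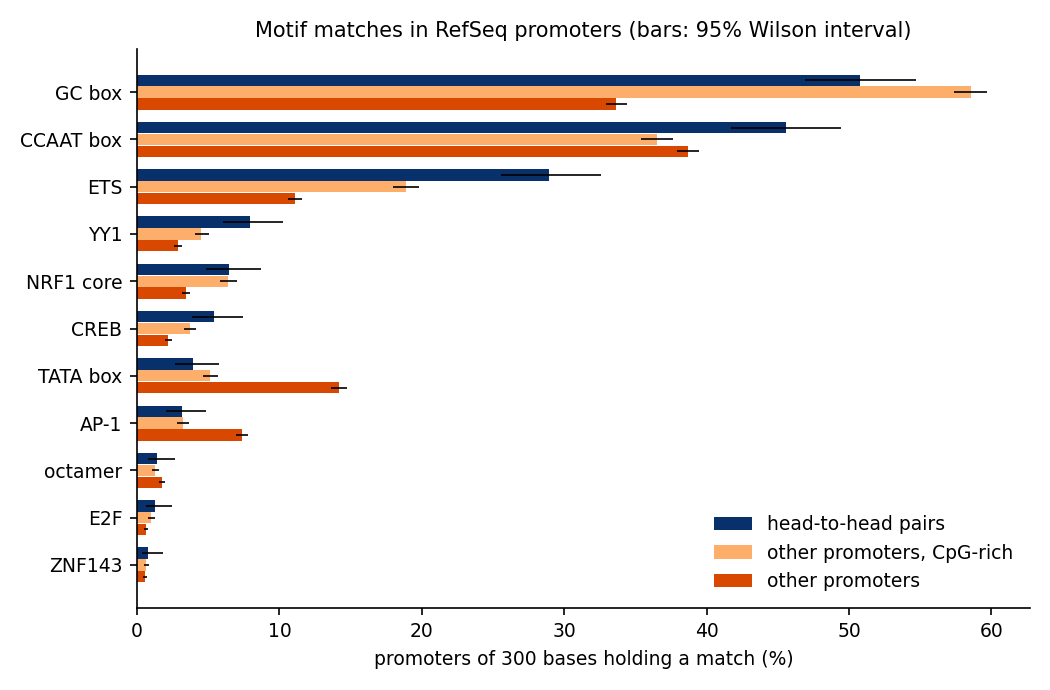
Share of RefSeq promoters of 300 bases (x axis, %) with at least 1 match to each motif (rows) for 632 pair promoters, 6844 CpG-rich others and 15346 others in all, with 95% Wilson intervals as lines. ETS, CCAAT, YY1 and CREB bars are longest for pairs, the GC box bar is longest for CpG-rich others, and the TATA box and AP-1 bars are longest for others in all.

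Pairs with a CCAAT box had higher coverage in both libraries. Pairs with a CCAAT box had a median scaled coverage of 165 in vehicle and 159 in TAMo, and pairs without one 112 and 109. The median log2 ratio was -0.02 with the box and -0.03 without. With an ETS motif the levels were 129 and 126, and without it 137 and 132, at a median ratio of -0.03 and -0.02. The octamer, added after values were seen, occurred in 1.42% of pair promoters, 1.77% of others and 1.27% of CpG-rich others. The 13 histone pairs, read from the same kind of promoter, all held a CCAAT box, 8 a TATA box (61.5%) and 5 an octamer (38.5%). None of them held an ETS, NRF1 or YY1 match. That combination is seen in the spans of Hist1h2ae/Hist1h2bg and Hist1h2ac/Hist1h2bc printed above, whose ratios were -0.45 and -0.17.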

How the data were processed

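Each library came with its own deposited peak list. Per the submitters' processing notes, the tools were Trimmomatic 0.36, Bowtie2 and MACS2 on mm10. Settings, read shifting and removal of duplicates: not given in the sources used here. In the deposited rows the score is 10 times the −log10 q rounded down (all but 1 vehicle row and 2 TAMo rows), beside a fold enrichment (a ratio over local background), a −log10 p and a −log10 q, all set by the authors' peak caller. Because the deposited fold is (coverage + 1)/(background + 1) and the −log10 p a Poisson tail, both give the reads at a summit. Whole reads came out, within 1% of the step between neighbouring whole numbers, for all but 30 of 163215 vehicle rows and 48 of 225656 TAMo rows, and the recovery was tested on simulated data. Since PCR copies of 1 molecule count as several reads, the intervals show counting error alone.

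Gene starts came from GENCODE M21 and sequences from RefSeq (GRCm38.p6). Each pair was represented by its summit of highest −log10 q in each library. Log2 ratios were scaled by the most frequent background and carry exact binomial 95% intervals; shares carry Wilson intervals. No genome was used, so composition and motifs were read from RefSeq promoters of 300 bases in place of the whole windows first planned, and the octamer was added after values were seen. The planned lists for antigen presentation and for T cell genes were joined into 1. Python 3.11.15, numpy 2.4.6, pandas 2.3.3 and scipy 1.17.1 were used.

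Named pairs were the 8 highest and 8 lowest ratios with at least 30 reads in both libraries, pairs open in 1 library, the 4 strongest, the 4 whose sides differ most and 16 set by name, of which 6 were found. Pairs named beyond this rule, within gene groups, were chosen after their values were seen. The members and lists were chosen with earlier results of these data known.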

Additional observations from a re-analysis of the deposited data

How the results depend on the processing

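Of 62 values recomputed under other settings, 49 stayed within counting error or within 1.5 times of the count given in the report. The other 13 moved. Some of the 49 had almost no room to move. A minimum of 30 reads in both libraries kept all 692 pairs. The lowest background nearly equalled the most frequent one, at 4.70608 and 4.7061 reads in vehicle and 5.8037 for both in TAMo. No median log2 ratio changed sign, and the other values have no sign to change. Pairs open in vehicle alone, 2 in the report, numbered 1 with an overlap of at least 100 bp, 1 at a −log10 q of at least 10, 1 with the span widened by 250 bp, 1 with starts up to 500 bp apart, and 5 with both lists cut to the 127423 strongest intervals. Those open in TAMo alone, 3 in the report, numbered 1 with the 250 bp span and 1 with starts up to 500 bp apart. The median log2 ratio was -0.052 when centred on other promoters. The single pair 1.5-fold higher became 2 when intervals need not overlap and 2 with the summit of highest coverage, and 0 with strongest summits within 50 bp; the last 2 settings were added after seeing the data. The lower pairs numbered 12 to 20 over all settings. The summit lay a median of 45 bp (vehicle) and 42 bp (TAMo) from the midpoint with starts up to 500 bp apart, against 50.5 and 52.5 bp. Other promoters widened upstream by 128 bp were open at 58.4% and 60.6%.

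No paired analysis was possible because each culture has 1 library. A single library per culture leaves none to drop. Depth limits the weakest sites: the lowest recovered summits held 13 reads in vehicle and 14 in TAMo, and openness below that was not detectable at this depth. Fewer open cells and less open chromatin per cell cannot be told apart.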

Other observations

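Promoters whose head-to-head partner is a noncoding gene lay between protein-coding pairs and other promoters. Of 672 genes in no protein-coding pair but with such a partner within 1000 bp, 82.6% (79.5 to 85.3) were open in vehicle and 82.9% (79.9 to 85.5) in TAMo. Median scaled coverage was 110 and 109, and the median log2 ratio at 532 of them was 0.01, with 2.82% at least 1.5-fold higher in TAMo and 3.20% lower. These promoters are part of the 19359 others used for comparison in the report.

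Local background also differed outside the histone clusters in single pairs. At Kctd19/Lrrc36 it was 8.80 reads in vehicle and 16.02 in TAMo, a scaled log2 ratio of 0.56, where the summit ratio was -0.66. At Klc3/Ckm it was 40.95 and 35.52 reads, -0.51, beside a summit ratio of -1.05. Both pairs were chosen after their values were seen.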
